A study of Homo sapiens with 10 samples.

Results

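The genes of antigen presentation were followed in A375 melanoma cells through 34 of 18569 array probe sets. Members were the probe sets whose symbol begins with HLA- or names a listed partner of the HLA molecules. They comprise beta-2-microglobulin, the peptide transporter and its loading proteins, the peptide-trimming enzymes, the immunoproteasome, the class I-like molecules MR1 and CD1D, and the regulators of transcription. Of these, 19 belong to the class I pathway and 15 to the class II pathway. No probe set carried the symbol PSME2, LNPEP or IFI30 in the table used to name probe sets, and these 3 genes were not analysed here.

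A375 is an established human line from a skin melanoma. The cells had been grown in RPMI1640 with glutamine and 10% serum and plated with or without doxycycline. In one group, 5 arrays carried RNA of cells kept with 2 µg/ml doxycycline until they were frozen on day 4. In the other, 5 arrays carried RNA of control cells frozen on the same day. The study's title names Omomyc, a fragment of MYC that interferes with MYC-driven transcription. The labels describe neither the construct nor a doxycycline-treated line without it, so doxycycline itself and any Omomyc it induced cannot be told apart. All arrays are of 1 cell line. The labels call the arrays of a group biological replicas without naming separate cultures, so the p-values rest on a spread between arrays that may be only technical.

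Class I molecules are made in nearly all cells and display peptides cut by the proteasome in the cytosol. TAP1 and TAP2 pump those peptides into the endoplasmic reticulum, where ERAP1 and ERAP2 trim them and tapasin loads them onto a heavy chain paired with beta-2-microglobulin. Class II molecules normally belong to dendritic cells, macrophages and B cells, and carry peptides from the lysosome; many melanomas express them too. CIITA switches class II genes on and NLRC5 class I genes, both by docking on the RFX and NF-Y proteins bound at the promoter. Interferon raises both pathways.

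Signals are log2 values made with RMA, and a log2 fold change is the mean of the doxycycline arrays minus the mean of the control arrays. A gene was called changed where limma gave a p-value under 0.05 after Benjamini-Hochberg adjustment over all 18569 probe sets. Array medians lay between 5.02 and 5.10. A set of 346 olfactory receptor probe sets, genes with little expected expression in these cells, had a median of 1.96 and a 95th percentile of 3.10. No member averaged below 3.10, although 6 lay under the median of all probe sets. Melanocyte lineage genes gave a mixed picture, with SOX10 at 8.91 in doxycycline and 8.71 in control cells and S100B at 7.84 and 7.58, but PMEL at 2.39 and 2.49, MLANA at 2.48 and 2.30 and TYR at 2.05 and 1.83.

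One feature of the arrays touches the members as a set. Doxycycline array 1 was the highest of its 5 arrays for 22 of 34 members (64.7%), against 33.4% of all probe sets. Without that array, 11 members were called higher and 2 lower, in place of 12 and 2, and the log2 fold changes of TAPBPL, MR1, TAPBP and TAP1 were 1.04, 0.98, 0.92 and 0.55. Among the control arrays, array 1 was the highest for 11 of 34 members (32.4%), against 15.4% of all probe sets.

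The 250 bases upstream of the start site are given for 7 members, from RefSeq sequence of GRCh38.p14. They are 4 class I pathway genes that rose and hold the core letters of the interferon-stimulated response element, the gene with the largest rise, a class I heavy chain that did not pass the test and a class II editing gene that rose. B2M lies at chr15:44711267-44711516 on the plus strand, TAP1 at chr6:32853705-32853954 on the minus strand and TAPBP at chr6:33314079-33314328 on the minus strand. ERAP2 lies at chr5:96876250-96876499 and TAPBPL at chr12:6451399-6451648, both on the plus strand. HLA-C lies at chr6:31272093-31272342 and HLA-DMA at chr6:32953098-32953347, both on the minus strand. All are promoter sequence just before an annotated first exon. Capitals mark 4 sets of letters on either strand: GAAA, any 2 letters and GAAA again, the core of the interferon-stimulated response element, CACGTG, the E-box bound by MYC with MAX and by USF proteins, ATTGG, the CCAAT box bound by NF-Y, and TGACG, a core bound by CREB and ATF proteins. Overlapping matches run together in the capitals.
B2M: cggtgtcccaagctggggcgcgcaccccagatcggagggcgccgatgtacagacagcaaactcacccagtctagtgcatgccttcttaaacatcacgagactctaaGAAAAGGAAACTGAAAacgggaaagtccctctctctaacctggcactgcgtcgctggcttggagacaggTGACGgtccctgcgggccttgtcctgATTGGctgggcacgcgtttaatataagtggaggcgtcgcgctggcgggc
TAP1: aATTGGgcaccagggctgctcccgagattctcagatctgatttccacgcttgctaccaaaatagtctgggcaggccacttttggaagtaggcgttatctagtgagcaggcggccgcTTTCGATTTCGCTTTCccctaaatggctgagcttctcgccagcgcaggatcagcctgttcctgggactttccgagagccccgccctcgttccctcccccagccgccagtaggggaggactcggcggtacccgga
TAPBP: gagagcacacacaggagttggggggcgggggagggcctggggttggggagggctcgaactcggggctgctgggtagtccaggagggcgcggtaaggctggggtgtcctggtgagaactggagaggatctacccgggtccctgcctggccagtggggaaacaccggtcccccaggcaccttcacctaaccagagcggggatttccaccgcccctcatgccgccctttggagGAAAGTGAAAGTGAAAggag
ERAP2: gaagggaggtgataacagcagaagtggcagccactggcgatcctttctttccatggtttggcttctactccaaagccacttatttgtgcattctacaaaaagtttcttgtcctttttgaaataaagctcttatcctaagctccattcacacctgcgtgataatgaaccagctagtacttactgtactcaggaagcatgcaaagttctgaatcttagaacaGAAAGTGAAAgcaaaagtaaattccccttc
TAPBPL: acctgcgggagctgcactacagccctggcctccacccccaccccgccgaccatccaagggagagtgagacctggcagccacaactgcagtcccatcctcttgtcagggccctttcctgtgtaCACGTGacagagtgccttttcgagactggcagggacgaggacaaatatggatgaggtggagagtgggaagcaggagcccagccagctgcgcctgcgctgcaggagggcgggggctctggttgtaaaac
HLA-C: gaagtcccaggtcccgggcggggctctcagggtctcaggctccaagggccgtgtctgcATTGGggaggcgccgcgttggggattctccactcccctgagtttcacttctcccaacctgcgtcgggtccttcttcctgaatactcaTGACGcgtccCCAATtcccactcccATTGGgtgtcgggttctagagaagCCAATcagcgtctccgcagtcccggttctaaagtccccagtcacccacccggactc
HLA-DMA: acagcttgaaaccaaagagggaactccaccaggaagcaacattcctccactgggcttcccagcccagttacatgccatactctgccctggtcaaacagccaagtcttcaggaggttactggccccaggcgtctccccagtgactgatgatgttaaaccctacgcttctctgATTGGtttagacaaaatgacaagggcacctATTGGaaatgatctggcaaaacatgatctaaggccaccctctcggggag

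In B2M, TAP1 and TAPBP the interferon element occurs as a pair of overlapping matches. They begin 144 and 138 bases before the start of B2M, 134 and 128 bases before that of TAP1, and 20 and 14 bases before that of TAPBP. ERAP2 has a single match that begins 30 bases before its start. B2M carries TGACG 75 bases and CCAAT letters 49 bases before the start. HLA-C carries TGACG at 105 bases and CCAAT letters at 192, 95, 80 and 56 bases. In HLA-DMA the CCAAT letters stand 79 and 49 bases before the start, and TAPBPL has an E-box 128 bases before the start shown.

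Across the members, 29 of 34 matched a RefSeq window of 250 bases before to 50 bases after a start site, and HLA-L, HLA-E, HLA-DRA, CIITA and NLRC5 had none. The interferon element core was found in 11 of the 29 (37.9%), against 4.38% of 27305 genes with such windows. It was held by 10 of 16 class I pathway genes and by 1 of 13 class II pathway genes, RFX5. Among class I pathway genes, it was in 5 of the 8 that rose and in 5 of the 8 that did not pass the test. Besides those shown, ERAP1, HLA-F, PSMB8, TAP2, PSME1 and PSMB10 held it, while MR1, TAPBPL and PSMB9 had no match in their windows. ATTGG was in 10 of 13 class II and 9 of 16 class I pathway genes, against 39.7% of all genes. TGACG was in 11 of the 29 (37.9%), against 28.4% of all genes, and CACGTG in 2 of the 29, TAPBPL and RFX5 (6.90%, against 8.77%). These letters are descriptions of sequence, and binding was not measured.

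In doxycycline-treated cells TAPBPL, MR1, TAPBP, ERAP2, TAP1, B2M, PSMB9 and ERAP1 of the class I pathway rose, and none of the 5 heavy chain symbols passed the test. In the class II pathway CIITA, HLA-DMA, HLA-DOA and HLA-DRB1 rose, and RFXAP and RFXANK fell. Of the 34 members 12 rose and 2 fell, beside 20.9% of all probe sets called higher and 17.2% called lower (38.1% in either direction). In the class I pathway 8 of 19 members rose and none fell, at an adjusted p under 0.05 in limma, with a median log2 fold change of 0.21. In the class II pathway 4 of 15 members rose and 2 fell, with a median of 0.17. The 2 that fell, RFXAP and RFXANK, are subunits of the RFX complex, which also binds class I promoters but was counted under class II. The median over all probe sets was 0.04. The log2 fold change was above 0 for 29 of the 34 members, beside 56.5% of all probe sets. No test of class I against class II as lists was made. The groups did not overlap in 8 class I and 5 class II pathway genes, beside 28.6% of all probe sets. A change of 1 log2 unit or more was seen for 2 members, both of the class I pathway, beside 6.47% of all probe sets.

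**Figure D1:**
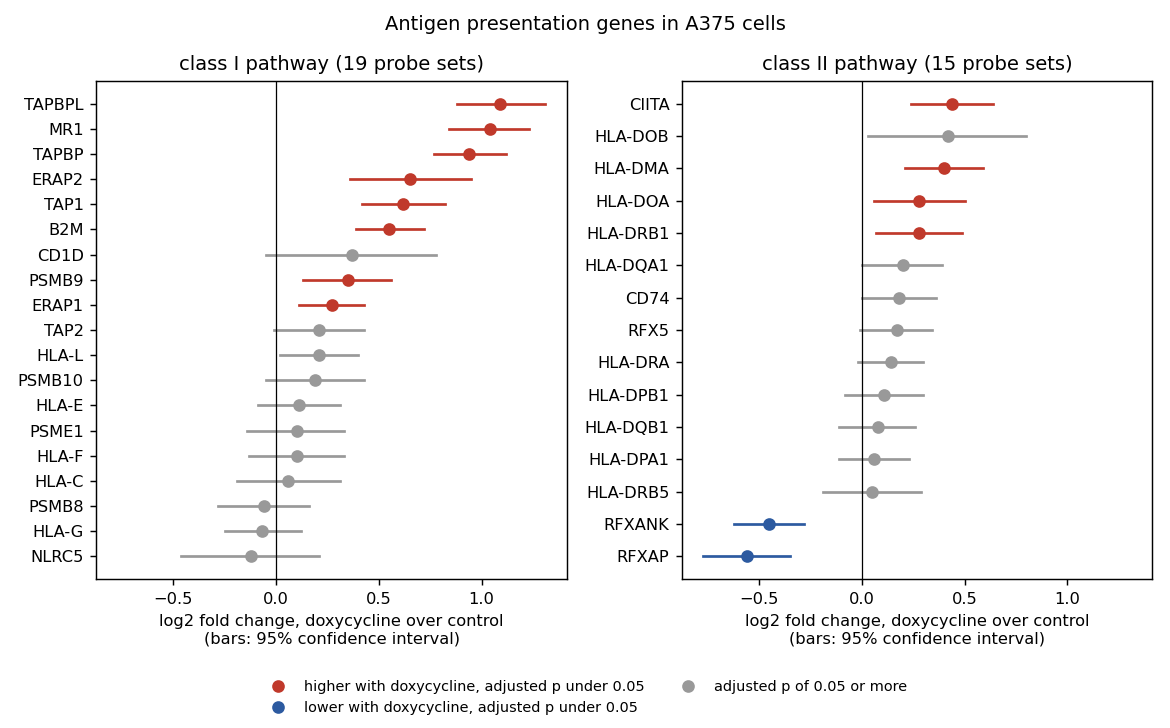
Log2 fold change of doxycycline over control (horizontal axis) for the 19 class I and 15 class II pathway probe sets, with 95% confidence intervals from limma. TAPBPL, MR1 and TAPBP lead the class I side at 1.09, 1.04 and 0.94, and RFXANK and RFXAP are the only genes called lower, at -0.45 and -0.56.

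Tapasin and its relative both rose. TAPBPL, or TAPBPR, a tapasin relative that exchanges peptides on class I molecules, measured 8.29, 7.99, 7.90, 8.18 and 8.09 log2 units in doxycycline-treated cells, against 6.95, 6.89, 7.08, 7.24 and 6.81 in control cells. TAPBP, which encodes tapasin, measured 8.82, 8.67, 8.62, 8.69 and 8.84 with doxycycline, against 7.66, 7.85, 7.77, 7.73 and 7.91 in control cells. For both genes every doxycycline array lay above every control array, with room between the groups. TAPBPL rose 2.13-fold (95% confidence interval 1.83 to 2.48, limma adjusted p = 6.11e-07) and TAPBP 1.92-fold (1.71 to 2.17, limma adjusted p = 2.62e-07).

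Of the 2 subunits of the peptide pump, TAP1 was called. It measured 6.10, 5.80, 5.64, 5.69 and 5.89 with doxycycline, against 5.12, 5.18, 5.26, 5.22 and 5.24 in control cells, a 1.54-fold rise (1.34 to 1.76, limma adjusted p = 6.62e-05) without overlap of the groups. TAP2, the other subunit of the pump, had means of 6.76 ± 0.18 with doxycycline and 6.55 ± 0.15 in control cells (SD, n = 5), and did not pass the test (limma adjusted p = 0.128). Its interval ran from 0.993-fold to 1.35-fold, and the call was made without doxycycline array 2 (limma adjusted p = 0.0302). Whether the responses of TAP1 and TAP2 differ was not tested.

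Both trimming enzymes rose. ERAP2 measured 3.50, 3.76, 3.76, 4.29 and 4.05 with doxycycline, against 3.39, 3.38, 3.13, 2.91 and 3.28 in control cells, a 1.57-fold rise (1.28 to 1.94, limma adjusted p = 0.00152). Its control signal is close to that of the olfactory receptor genes, which compresses a fold change. ERAP1 measured 9.02, 8.87, 8.95, 8.92 and 8.85 with doxycycline, against 8.57, 8.69, 8.65, 8.72 and 8.65 in control cells, a smaller but equally separated rise of 1.21-fold (1.08 to 1.34, limma adjusted p = 0.00851).

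Beta-2-microglobulin, the light chain that pairs with class I heavy chains, also rose. B2M measured 11.39, 11.46, 11.46, 11.53 and 11.39 with doxycycline, against 11.01, 10.85, 10.99, 10.78 and 10.86 in control cells. The groups did not overlap, and the rise was 1.46-fold (1.31 to 1.64, limma adjusted p = 3.84e-05). HLA-C, a classical heavy chain recognised by T cells and natural killer cells, measured 8.11, 7.68, 7.75, 7.40 and 7.93 with doxycycline, against 7.71, 7.65, 7.76, 7.57 and 7.89 in control cells. Its groups overlapped widely, with a fold of 1.04 (0.874 to 1.24, limma adjusted p = 0.746).

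The other heavy chain symbols were not called. HLA-E, whose product presents leader peptides to natural killer cells, averaged 7.92 ± 0.19 with doxycycline and 7.80 ± 0.07 in control cells (SD, n = 5; limma adjusted p = 0.393). HLA-F averaged 7.16 ± 0.19 and 7.06 ± 0.16, and HLA-G, best known from the placenta, 5.43 ± 0.12 and 5.50 ± 0.11. HLA-L, a transcribed pseudogene, averaged 6.70 ± 0.15 with doxycycline and 6.49 ± 0.10 in control cells, at a limma adjusted p of 0.0857. It was called without doxycycline array 4 (limma adjusted p = 0.0186) and among probe sets above the median signal (limma adjusted p = 0.0420). None of the 5 heavy chain symbols was called, beside 38.1% of all probe sets called in either direction. The upper ends of the intervals of these symbols were at most 1.32-fold. HLA genes share long stretches of sequence and vary between people, so probes may cross-hybridise or mismatch the alleles of A375, which was not tested.

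Of the 2 class I-like molecules, MR1 rose. MR1, which shows vitamin B metabolites of microbes to mucosal-associated invariant T cells, measured 8.21, 7.98, 7.97, 8.08 and 7.72 with doxycycline. The control arrays read 6.90, 6.96, 6.98, 6.96 and 6.98, so the groups were far apart, with a 2.05-fold rise (1.79 to 2.35, limma adjusted p = 3.09e-07). CD1D, which presents lipids to natural killer T cells, averaged 4.52 ± 0.37 with doxycycline and 4.15 ± 0.40 in control cells (SD, n = 5; limma adjusted p = 0.165). CD1D passed without control array 4, at a log2 fold change of 0.50 (limma adjusted p = 0.0479).

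**Figure D2:**
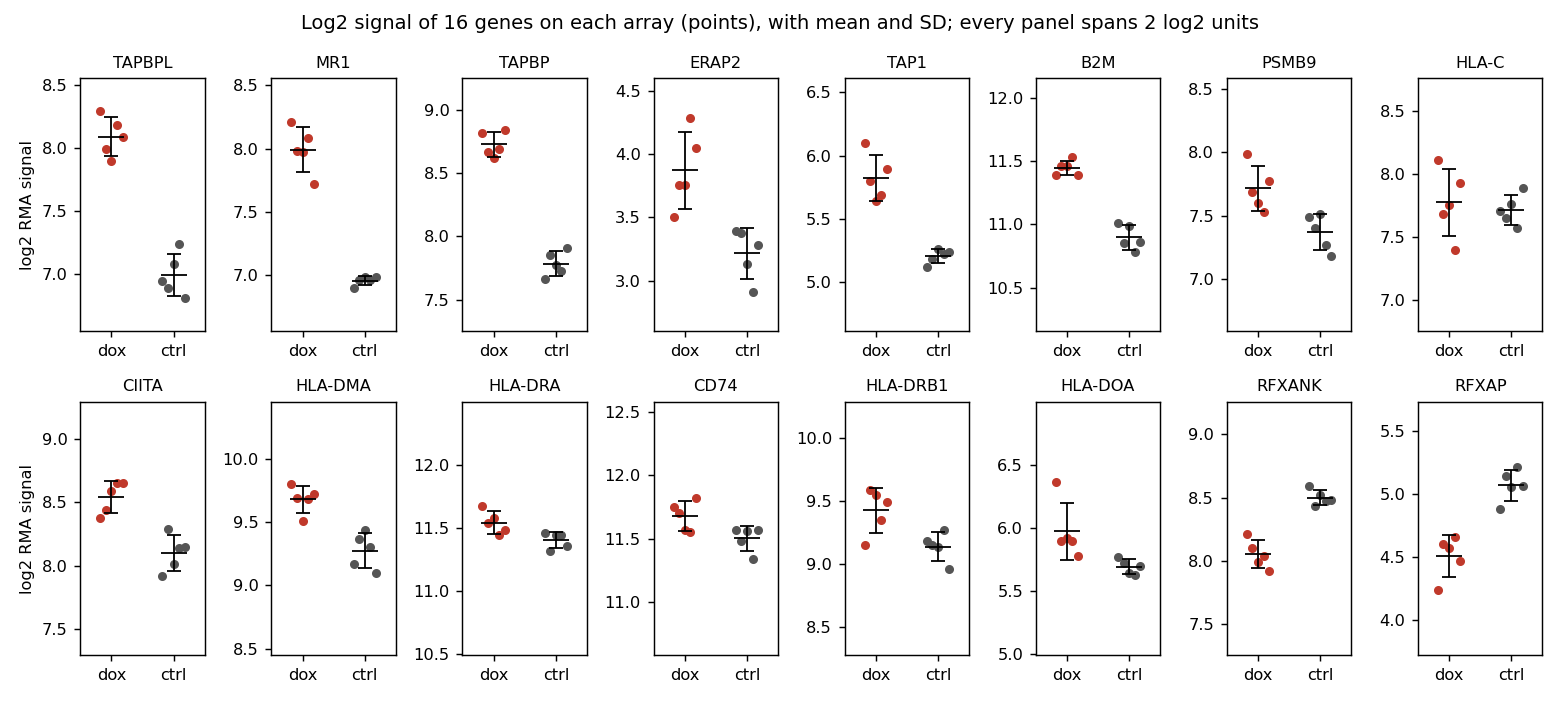
Log2 RMA signal of 16 members on each array (vertical axis, 2 log2 units in every panel), doxycycline left and control right, with group mean and SD. The groups are apart for TAPBPL, MR1, TAPBP, TAP1 and B2M, overlap for HLA-C, HLA-DRA, CD74 and HLA-DRB1, and RFXANK and RFXAP lie lower with doxycycline.

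The immunoproteasome replaces 3 catalytic subunits of the standard proteasome and favours peptides that fit class I molecules. PSMB9 measured 7.99, 7.69, 7.60, 7.53 and 7.77 with doxycycline, against 7.49, 7.40, 7.51, 7.27 and 7.18 in control cells, a 1.27-fold rise (1.10 to 1.48, limma adjusted p = 0.0131). Its lowest doxycycline array and highest control array were almost level, at 7.53 and 7.51. PSMB8 averaged 7.56 ± 0.22 with doxycycline and 7.62 ± 0.07 in control cells (SD, n = 5; limma adjusted p = 0.702), and PSMB10 6.29 ± 0.19 and 6.10 ± 0.18 (limma adjusted p = 0.212). PSME1, a subunit of the PA28 activator, averaged 7.62 ± 0.19 and 7.52 ± 0.18 (limma adjusted p = 0.554). Thus 1 of these 4 genes was called, PSMB9, beside 38.1% of all probe sets called in either direction.

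Of the 3 constitutive subunits that the immunoproteasome replaces, 2 fell, beside 17.2% of all probe sets called lower. PSMB6, the subunit that PSMB9 replaces, fell by 0.58 on the log2 scale (limma adjusted p = 4.62e-04), and PSMB7, replaced by PSMB10, fell by 0.44 (limma adjusted p = 0.00123). PSMB5, replaced by PSMB8, did not pass (0.05, limma adjusted p = 0.722). Within arrays, the log2 ratio of PSMB9 to PSMB6, set to its control mean, was 1.05, 0.86, 0.92, 1.03 and 0.78 with doxycycline, against -0.08, 0.01, 0.09, 0.06 and -0.08 in control cells. The ratio of PSMB10 to PSMB7 was 0.80, 0.42, 0.61, 0.47 and 0.84, against 0.16, 0.01, -0.13, 0.21 and -0.25. Neither ratio overlapped between the groups, with differences of 0.93 and 0.63 log2 units (exact two-sided permutation test over the arrays, p = 0.00794 for each, the smallest that 5 against 5 allows, adjusted p = 0.0238 over 6 pairs). The PSMB8 to PSMB5 ratio differed by -0.11 (exact permutation adjusted p = 0.333).

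Other ratios set partner genes against each other. The HLA-C to B2M ratio was -0.10, -0.60, -0.53, -0.94 and -0.28 with doxycycline relative to its control mean, against -0.12, -0.02, -0.04, -0.03 and 0.21 in control cells. It was lower by 0.49 log2 units (exact permutation adjusted p = 0.0317), and doxycycline array 1 overlapped the control arrays. The call held without doxycycline array 1 (exact permutation adjusted p = 0.0238) or control array 1 (0.0317), and was lost without any other single array (0.0635 each, differences of -0.54 to -0.38). The ratio of HLA-DRA to CD74 differed by -0.04 (exact permutation adjusted p = 0.627). NLRC5 to CIITA differed by -0.56 (exact permutation adjusted p = 0.0595), and by -0.73 without doxycycline array 1 (exact permutation adjusted p = 0.0238). It did not pass without any other single array (exact permutation adjusted p = 0.0952 to 0.119). NLRC5 averaged 3.37 with doxycycline and 3.49 in control cells, close to the olfactory receptor 95th percentile of 3.10, which limits this ratio. A ratio shows that a pair changed unequally, not which gene stayed level.

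**Figure D3:**
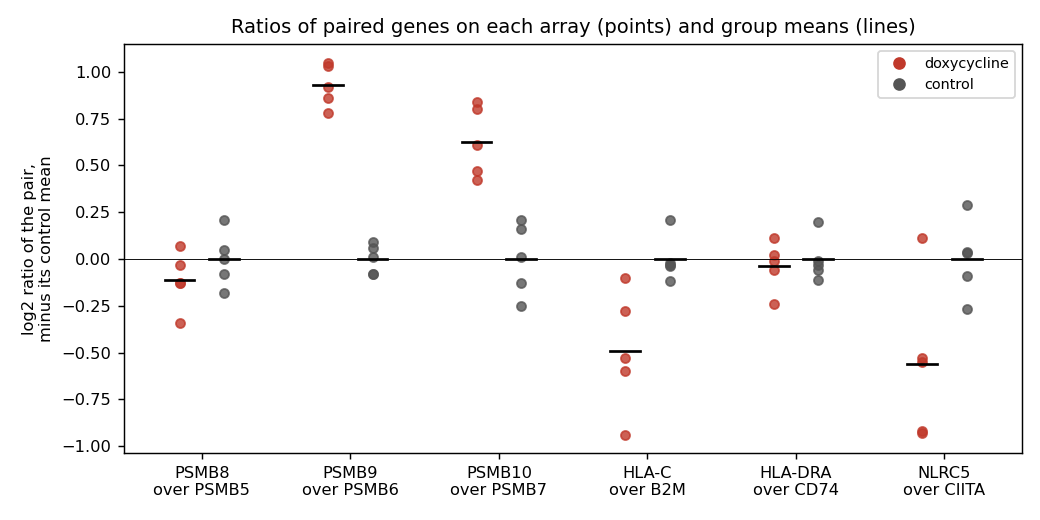
Log2 ratio of 6 gene pairs on each array minus the control mean of that ratio (vertical axis), doxycycline left and control right, with lines at group means. PSMB9 over PSMB6 and PSMB10 over PSMB7 separate completely, by 0.93 and 0.63 log2 units, whereas HLA-DRA over CD74 differs by -0.04.

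The class II chains themselves showed small differences. HLA-DRA, the nearly non-polymorphic alpha chain of HLA-DR, measured 11.67, 11.54, 11.58, 11.44 and 11.48 with doxycycline, against 11.46, 11.32, 11.44, 11.44 and 11.36 in control cells. Signal was well above that of olfactory receptor genes on all 10 arrays, and the groups overlapped (1.10-fold, 0.984 to 1.23, limma adjusted p = 0.175). CD74, the invariant chain that guides class II molecules to the lysosome, measured 11.75, 11.70, 11.57, 11.55 and 11.82, against 11.57, 11.48, 11.56, 11.34 and 11.57 in control cells. Its fold was 1.13 (0.998 to 1.28, limma adjusted p = 0.118). Both genes passed when limma let the prior variance follow signal, at adjusted p values of 0.0477 for HLA-DRA and 0.0261 for CD74.

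HLA-DRB1, the polymorphic beta chain of HLA-DR, measured 9.15, 9.59, 9.55, 9.35 and 9.49 with doxycycline, against 9.18, 9.15, 9.14, 9.27 and 8.96 in control cells. It rose 1.22-fold (1.05 to 1.40, limma adjusted p = 0.0319), with doxycycline array 1 inside the control range. The call was lost without control array 2, 3 or 5 (limma adjusted p = 0.0551, 0.0587 and 0.0817) and without doxycycline array 2, 3 or 5 (limma adjusted p = 0.0810, 0.0801 and 0.0670). HLA-DQA1 averaged 6.88 ± 0.16 with doxycycline and 6.69 ± 0.10 in control cells (SD, n = 5; limma adjusted p = 0.108, and 0.0396 without doxycycline array 2). HLA-DQB1, HLA-DPA1, HLA-DPB1 and HLA-DRB5 had log2 fold changes of 0.08, 0.06, 0.11 and 0.05, at limma adjusted p values between 0.390 and 0.754. Of the 7 DR, DQ and DP chains, 1 was called, beside 38.1% of all probe sets called in either direction.

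Peptide editing in the class II compartment is done by HLA-DM and restrained by HLA-DO. HLA-DMB, the partner chain of HLA-DMA in HLA-DM, was not among the members, so only HLA-DMA was read. HLA-DMA measured 9.80, 9.69, 9.51, 9.68 and 9.72 with doxycycline, against 9.17, 9.37, 9.44, 9.30 and 9.10 in control cells. The arrays did not overlap, and HLA-DMA rose 1.32-fold (1.16 to 1.51, limma adjusted p = 0.00213). HLA-DOA measured 6.36, 5.90, 5.92, 5.90 and 5.78, against 5.77, 5.72, 5.64, 5.63 and 5.70 in control cells, with doxycycline array 1 well above the rest. Its rise of 1.22-fold (1.04 to 1.42, limma adjusted p = 0.0420) lost its call without any single array other than doxycycline array 5, at limma adjusted p values of 0.0503 to 0.0868, and the log2 fold change was 0.18 in place of 0.28 without doxycycline array 1. HLA-DOB averaged 4.02 ± 0.30 with doxycycline and 3.60 ± 0.39 in control cells (SD, n = 5; limma adjusted p = 0.0835), and passed without control array 5 at a log2 fold change of 0.56 (limma adjusted p = 0.0144).

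Of the coactivators, CIITA was called and NLRC5 was not. CIITA, the master coactivator of class II genes, measured 8.38, 8.44, 8.59, 8.65 and 8.65 with doxycycline, against 7.92, 8.29, 8.01, 8.14 and 8.15 in control cells, a 1.36-fold rise (1.18 to 1.55, limma adjusted p = 0.00135) without overlap. NLRC5, its class I counterpart, measured 3.88, 2.90, 3.43, 3.11 and 3.51, against 3.33, 3.40, 3.44, 3.82 and 3.45 in control cells. These dim values overlapped fully (0.918-fold, 0.728 to 1.16, limma adjusted p = 0.595).

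The RFX complex, which binds the X box of both class I and class II promoters, has 3 subunits. RFXANK measured 8.21, 8.10, 7.99, 8.04 and 7.92 with doxycycline, against 8.59, 8.43, 8.52, 8.47 and 8.48 in control cells. RFXAP measured 4.24, 4.60, 4.57, 4.66 and 4.47, against 4.88, 5.14, 5.05, 5.21 and 5.06 in control cells. Both subunits lay lower on every doxycycline array than on any control array. RFXANK fell by 0.45 ± 0.08 on the log2 scale (SE, limma adjusted p = 3.29e-04) and RFXAP fell by 0.56 ± 0.10 (SE, limma adjusted p = 2.61e-04). RFX5, the DNA-binding subunit, averaged 7.76 ± 0.07 with doxycycline and 7.59 ± 0.12 in control cells (SD, n = 5; limma adjusted p = 0.127).

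By position, 20 members lie in the major histocompatibility complex on chromosome 6, and 6 of them rose and none fell, with a median log2 fold change of 0.17. Of the 14 members on other chromosomes 6 rose and 2 fell, with a median of 0.23. Neighbours differed in their calls: in gene order TAP2 and PSMB8 were not called, TAP1, PSMB9, HLA-DMA and HLA-DOA rose, and HLA-DPA1 and HLA-DPB1 were not called. TAP1 and PSMB9 are transcribed away from each other, and their promoter windows share 13 bases. Both rose. The 15 HLA symbols had 3 called higher, a share close to the 20.9% of all probe sets, and a median of 0.11. The 19 other members had 9 higher and 2 lower, beside 20.9% and 17.2% of all probe sets, and a median of 0.27. Neither the difference between these subsets nor that between the positions was tested.

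**Figure D4:**
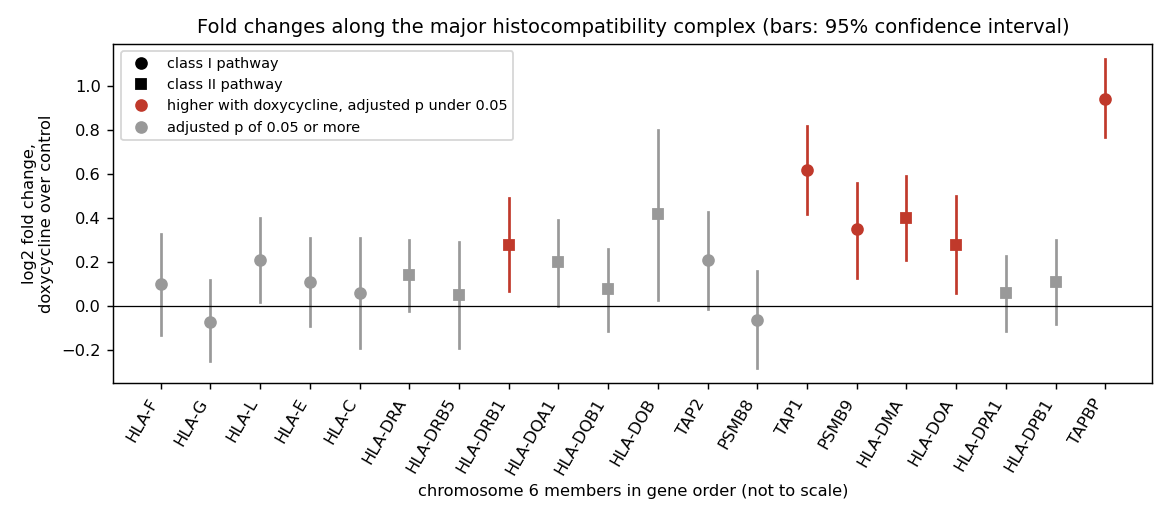
Log2 fold change of doxycycline over control (vertical axis, bars show 95% confidence intervals) for the 20 chromosome 6 members in gene order, circles for class I and squares for class II pathway genes. Calls fall on HLA-DRB1, on the run from TAP1 to HLA-DOA and on TAPBP, while the 5 heavy chain symbols at the left are not called.

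Further genes of the pathway that are not members were counted by list, to be read beside the 20.9% of all probe sets called higher and the 17.2% called lower. The lists were not tested as lists. Of 7 endoplasmic reticulum chaperones that help class I molecules fold, CALR, or calreticulin, rose by 0.34 ± 0.09 (log2 fold change ± SE), while ERP29 (-0.65 ± 0.08), the lectin chaperone calnexin, CANX (-0.32 ± 0.08), and PDIA6 (-0.31 ± 0.07) fell. PDIA3, which sits with tapasin in the loading complex, did not pass (0.13, limma adjusted p = 0.334), but was called without doxycycline array 1 (0.22, limma adjusted p = 0.0374). Of 5 constitutive proteasome genes and activators 3 fell, PSMB6, PSMB7 and PSME3 (-0.30 ± 0.07), and PSME4 rose (0.50 ± 0.09).

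Of 9 interferon gamma and JAK-STAT inputs 3 rose and 1 fell. IRF9, the DNA-binding part of the factor that reads the interferon-stimulated response element, averaged 7.13 ± 0.13 with doxycycline and 6.32 ± 0.08 in control cells (SD, n = 5; limma adjusted p = 1.61e-06). SOCS3, a feedback inhibitor (1.00 ± 0.13), and the kinase JAK1 (0.37 ± 0.07) rose as well, and JAK2 fell (-0.54 ± 0.09). IRF1, which drives NLRC5, CIITA and TAP1 after interferon gamma, had a log2 fold change of 0.06 (limma adjusted p = 0.633), and the receptor subunits IFNGR1 and IFNGR2 had -0.00 and 0.10 (limma adjusted p = 0.976 and 0.431).

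Among 11 other factors of these promoters 5 rose and 2 fell. KAT2B, an acetyltransferase recruited by CIITA (1.36 ± 0.10), USF1 (0.53 ± 0.10), the NF-Y subunit NFYA (0.45 ± 0.10) and CREB1 (0.30 ± 0.08) rose. RELA, the p65 subunit of NF-kB, also rose (0.27 ± 0.09, limma adjusted p = 0.0224), but not without control array 1 or 3 or doxycycline array 5 (limma adjusted p = 0.0632, 0.0563 and 0.0526). EZH2, the methyltransferase of Polycomb repressive complex 2, which can silence class I and class II genes in tumours, fell (-1.36 ± 0.10), and so did USF2 (-0.42 ± 0.09). Of 9 class II proteases and turnover genes 4 rose and none fell: CTSL (1.06 ± 0.08), CTSB (0.90 ± 0.08), CTSS, which cuts the invariant chain (0.88 ± 0.10), and the cathepsin inhibitor CST3 (0.45 ± 0.09). Of 8 HLA-like surface molecules 1 was called, the iron regulator HFE, at 0.39 ± 0.14 (limma adjusted p = 0.0333, and 0.0539, 0.0753 and 0.0861 without control array 2, 3 and 5, and 0.0732, 0.0789 and 0.0552 without doxycycline array 1, 3 and 4). Over all 49 genes of these lists 15 rose and 9 fell, with a median of 0.10, beside a median of 0.04 over all probe sets.

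**Figure D5:**
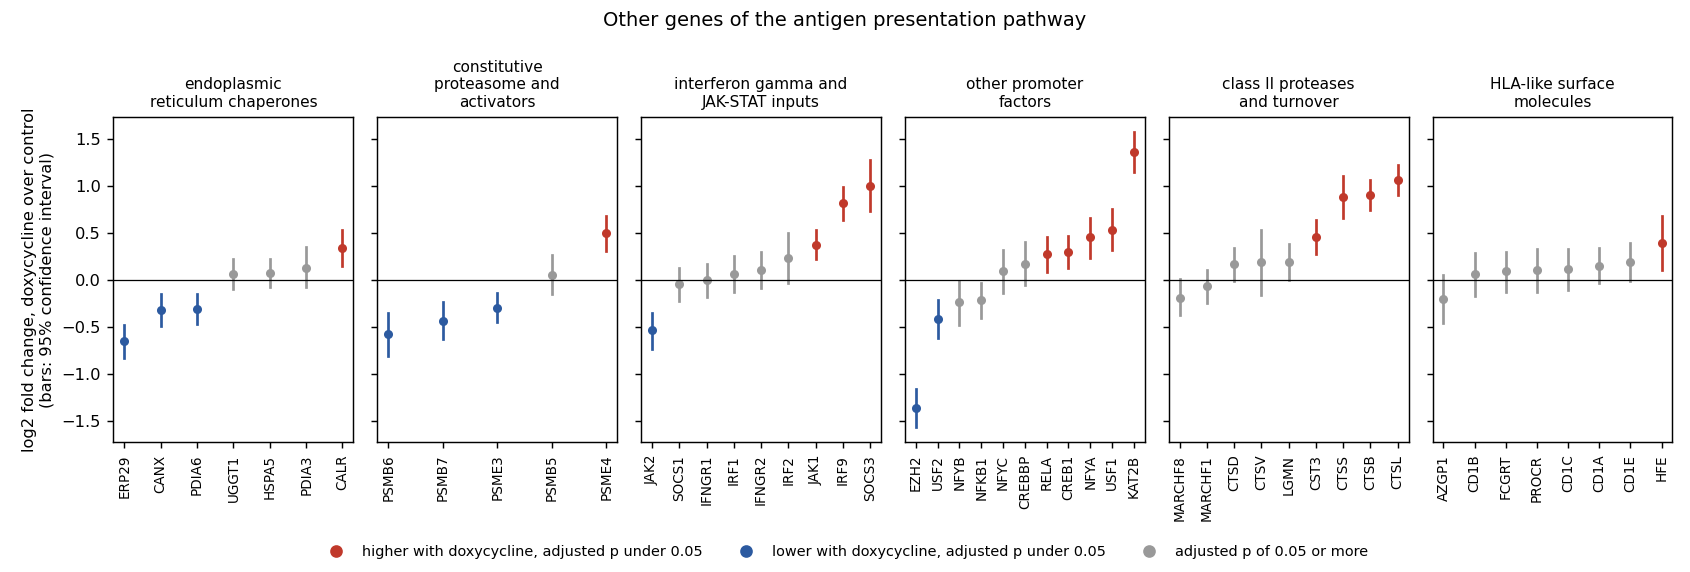
Log2 fold change of doxycycline over control (vertical axis, bars show 95% confidence intervals from limma) for 49 other genes of the pathway in 6 lists. CTSL, CTSB, CTSS, IRF9, SOCS3 and KAT2B stand at the upper end and EZH2, at -1.36, at the lower end.

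Class II genes mark immune cells in tissue, so leukocyte markers were read on the same arrays. The leukocyte and antigen-presenting cell list had 12 of 13 markers measured, and 7 of the 12 averaged below the olfactory receptor 95th percentile. PTPRC, or CD45, stood at 2.07 with doxycycline and 2.15 in control cells, and the B cell marker MS4A1 at 2.24 and 2.28. The summed linear signal of the list ran from 358 to 520 with doxycycline and from 178 to 243 in control cells. Lysozyme, LYZ, the brightest of the 12, rose, at 8.31 ± 0.25 and 6.87 ± 0.28 log2 units (SD, n = 5). CD14, CD79A and ITGAX also rose, at lower signal. The fibroblast list, 5 of 5 measured, summed to 222 to 257 with doxycycline and 103 to 126 in control cells. In it 5 of 5 were called higher, beside 20.9% of all probe sets. The endothelial list, 4 of 4 measured, summed to 117 to 165 with doxycycline and 60.3 to 82.0 in control cells. Of its genes KDR rose, at 6.88 and 5.70 log2 units, and VWF, CDH5 and PECAM1 were not called. CDH5 and PECAM1 averaged below the olfactory receptor 95th percentile. The keratinocyte list, whose 4 markers all averaged below that percentile, summed to 23.4 to 28.5 with doxycycline and 21.8 to 27.1 in control cells. The melanocyte list, 7 of 8 measured, summed to 1138 to 1301 and 832 to 888, and its regulator MITF rose by 1.21 log2 units. The part of these genes in the results was not tested.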

How the data were processed

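Total RNA was labelled with biotin and hybridised to Clariom S arrays (human HT), 5 with doxycycline and 5 controls, grouped by their titles. The deposited values are log2 expression per probe set, made by the authors with RMA, per the submitters' processing notes; for the software version, filters, slides and scan dates nothing is stated in the sources used here. RMA equalises the arrays' distributions, which hides any shift common to most genes, and dim signal compresses fold changes. No further normalization was applied. The number of arrays limits the precision.

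Platform annotation named 17511 probe sets with 1 symbol each. limma 3.58.1 in R 4.3.3 (lmFit and eBayes, group as the only term, two-sided) was run on all 18569 probe sets. Ratios of paired genes were compared with exact permutation tests in scipy 1.17.1. Both tests were tested on simulated data first. Every member was reported; from the other lists up to 4 called genes each, or all of 5 or fewer, were named, and PDIA3, PSMB5, IRF1, IFNGR1 and IFNGR2 after their values were seen. The members and lists were chosen with earlier results of these data known. Alternatives were filters on dim probe sets, median centring, repeated quantile normalization, trended and robust priors, array weights, the replicate number as a block, and each array left out. Of 9 planned ratios 6 were compared, and the others are not reported here. Same-numbered arrays did not deviate together (correlations -0.44 to -0.01), so numbers were not taken as pairs.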

Additional observations from a re-analysis of the deposited data

Results flagged for a closer look

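An array far from the other 4 of its group, by Dixon's test at the critical value of 0.71, was found in 8 of 80 groups of values tested (34 members and 6 ratios, in each group); chance gives about 1 in 20. Among doxycycline arrays, HLA-DOA read 6.36 on array 1, against 5.78 to 5.92 on the others, and HLA-L read 6.44 on array 4, against 6.72 to 6.82. In the control group, array 4 stood apart for HLA-G at 5.30 (others 5.51 to 5.58), for TAP2 at 6.29 (others 6.57 to 6.67) and for NLRC5 at 3.82 (others 3.33 to 3.45). Control array 5 stood apart for HLA-DQA1 at 6.52 (others 6.71 to 6.75) and for HLA-DPB1 at 9.65 (others 9.88 to 9.97). MR1 read 6.90 on control array 1, against 6.96 to 6.98 on the others, a gap that is small beside its rise of 1.04 log2 units.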

How the results depend on the processing

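Of the 14 called members, 12 kept their call and direction under every alternative that measured them (at most 18), HLA-DRB1 and HLA-DOA being the exceptions, and 7 members not called passed under 1 or 2 alternatives. Members called numbered 10 to 12 higher and 2 lower, class I calls 8 to 9 (8 on all arrays) and class II calls 4 to 5 (6 on all arrays) with each array left out, and calls over all probe sets 6378 to 7237 (7078). Among probe sets above the median signal 1 member was called lower, since RFXAP was filtered out there. With the replicate number as a block (the replicate block), all calls numbered 6476, HLA-DRB1 lost its call (limma adjusted p = 0.0662), and the ratio differences stayed at 0.93 for PSMB9 to PSMB6, 0.63 for PSMB10 to PSMB7 and -0.49 for HLA-C to B2M but did not pass (exact permutation adjusted p = 0.188); 5 pairs cannot reach the threshold. With each array left out, the ratio differences ran from 0.90 to 0.96, from 0.56 to 0.68 and from -0.59 to -0.38, and from -0.73 to -0.47 for NLRC5 to CIITA. Class medians ran from 0.19 to 0.28 for class I and 0.13 to 0.19 for class II. Signal close to that of olfactory receptor genes limits NLRC5, ERAP2, HLA-DRB5, HLA-DOB and CD1D.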
